A study of Mus musculus with 6 samples.

Results

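A set of genes that encode chains of type VI collagen, of type VIII collagen and of the FACITs (fibril-associated collagens with interrupted triple helices) was followed in bulk RNA sequencing of mouse thoracic aorta. The members were chosen by name and by collagen class, with earlier results of these data known. They are 9 of the 52636 genes in the deposited count table: Col6a1, Col6a2, Col6a3 and Col6a6 for type VI, Col8a1 and Col8a2 for type VIII, and Col12a1, Col14a1 and Col16a1 for the FACITs. The comparison asked how transcripts of the adult aortic wall differ soon after smooth muscle cells (SMCs) lose both receptors for TGF-β. There were 4 libraries of C57BL/6J mice that had no treatment (WT) and 2 libraries of Tgfbr1/2iSMCKO mice (KO), all from animals 12 weeks old and, by the study's methods, male. The KO mice carried floxed alleles of Tgfbr1 and Tgfbr2 (Tgfbr1f/f.Tgfbr2f/f), the mT/mG reporter, in which a recombined cell turns to green fluorescent protein, and Myh11-CreERT2. From the age of 11 weeks they had 5 daily intraperitoneal doses of 2 mg tamoxifen. Cre is driven there by the SMC gene Myh11 from a transgene on the Y chromosome, so the deletion was directed to SMCs and not to the other cells of the wall. WT mice lacked every one of these alleles and the drug as well, and these differences cannot be told apart from the loss of the receptors. The RNA was taken from the aorta with its adventitia, so fewer cells of a type and less RNA per cell cannot be told apart in any value below.

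Collagen VI is assembled from an alpha 1, an alpha 2 and a much longer partner chain, either alpha 3 or a relative of it such as alpha 6, into beaded microfilaments that lie close to cells and tie basement membranes to the fibrillar matrix. Collagen VIII is a short network-forming collagen of endothelium and SMCs, built from the products of Col8a1 and Col8a2, and is known for its increase in remodelling arteries. The FACITs decorate the surface of other collagen fibrils. Collagens XII and XIV are near relatives with large fibronectin-like arms, and collagen XVI is found near cells and at fibril surfaces.

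What makes these products collagens is the repeat of glycine at regular spacing, the first residue of each Gly-X-Y triplet, and the share of the chain that carries it differed widely among the 9 genes, also within a class. The coding stretches below, each 90 bases long, are shown because they come from a gene that is abundant in the aorta (Col6a1) and from the 2 genes that passed the test for a higher level in KO (Col8a1 and Col12a1). They were read 5′ to 3′ from the transcript with the longest coding sequence in GENCODE M21, and capitals mark the first codon, for glycine, of each triplet.
Col6a1, coding bases 766 to 855: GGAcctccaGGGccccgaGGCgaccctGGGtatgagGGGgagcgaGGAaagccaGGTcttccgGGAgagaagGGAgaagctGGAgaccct
Col8a1, coding bases 1063 to 1152: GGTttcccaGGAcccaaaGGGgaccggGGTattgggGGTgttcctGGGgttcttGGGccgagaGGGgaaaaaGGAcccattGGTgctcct
Col12a1, coding bases 8413 to 8502: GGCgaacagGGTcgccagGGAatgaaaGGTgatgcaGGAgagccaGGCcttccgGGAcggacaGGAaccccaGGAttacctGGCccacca
Counted over runs of at least 3 such triplets, Col8a1 held 149 in 744 residues and Col8a2 held 151 in 699, which is 60.1% and 64.8% of the chain. Col16a1 was like them in this respect, with 332 triplets over 63.0% of 1580 residues. Col12a1 and Col14a1 each held 83 triplets, but these covered only 8.1% of 3065 residues and 13.8% of 1798 residues. The type VI chains held between 107 and 110 triplets, which made up 31.9% of the short chains Col6a1 and Col6a2, 10% of Col6a3 and 14.2% of Col6a6. The classes compared below thus differ in length as well as in abundance, and levels are compared between genes only per kilobase.

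The promoters of both type VIII genes are shown because these genes encode partner chains of a single collagen type, and of them Col8a1 was called higher in KO and Col8a2 was not. Each run is the 250 bases before the RefSeq start on GRCm38.p6, given 5′ to 3′ on the strand of the gene, with the match to CAGACA in capitals.
Col8a1, chr16:57754738-57754987, minus strand: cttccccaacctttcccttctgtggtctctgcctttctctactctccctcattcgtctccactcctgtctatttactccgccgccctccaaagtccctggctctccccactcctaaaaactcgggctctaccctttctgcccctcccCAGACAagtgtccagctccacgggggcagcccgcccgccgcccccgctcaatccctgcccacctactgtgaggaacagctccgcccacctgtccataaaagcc
Col8a2, chr4:126286544-126286793, plus strand: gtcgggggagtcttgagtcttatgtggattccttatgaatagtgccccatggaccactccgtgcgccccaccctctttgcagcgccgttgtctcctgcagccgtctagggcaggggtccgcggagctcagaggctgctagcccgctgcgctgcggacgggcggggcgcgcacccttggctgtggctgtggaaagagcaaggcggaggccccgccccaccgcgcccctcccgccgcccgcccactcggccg
CAGACA, the core of an element known to bind SMAD proteins, stands once in the Col8a1 window, at bases 148 to 153. The Col8a2 window holds no match to it, to the AP-1 motif TGANTCA or to the CArG box of serum response factor. Both strands were searched, the motifs share no bases in these windows, and CAGACA is present in 17.1% of the 32851 mouse promoters searched over the same length. RefSeq promoters were matched for 7 of the 9 genes, not for Col12a1 and Col14a1, and the only other match was a TGANTCA in Col6a1, a motif found in 6.7% of all promoters. The CArG box stands in 1.5% of them.

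The libraries held between 19650983 and 28860598 counts. Mitochondrial genes took between 2.62% and 4.44% of the counts in WT, 3.38% in KO-1 and 11.71% in KO-2, so that KO-2 stood apart, and results that rest on 1 KO library are given without it below. Normalised counts of the targeted genes overlapped between the groups: Tgfbr1 was at 3858 to 5420 in WT and at 5780 and 4568 in KO, and Tgfbr2 at 5327 to 7042 in WT and at 5784 and 5937 in KO. A count over the whole gene takes in undeleted exons and reads of cells without Cre, so these values check nothing about the deletion. Table columns carry codes, and their match to WT and KO was inferred from those codes.

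In WT aorta, type VI collagen was by far the most abundant of the 3 classes. On an RPKM scale (reads per kilobase of exon, scaled for depth with the DESeq2 size factors), the level was 217.5 ± 4.34 for Col6a1, 133 ± 4.96 for Col6a2 and 74.7 ± 4.05 for Col6a3 (SD, n = 4 for each level in WT). Col14a1 followed at 52.5 ± 3.78, far above the other FACITs, with Col16a1 at 7.82 ± 0.629. The remaining genes were low: Col6a6 was at 3.81 ± 0.758, Col8a1 at 1.51 ± 0.102, Col8a2 at 1.35 ± 0.227 and Col12a1 at 0.978 ± 0.409. In this order the values of neighbouring genes overlapped between libraries only for Col8a1 with Col8a2 and for Col8a2 with Col12a1. These overlaps depend on the exon length used. With the longest transcript the WT means of Col6a1 and Col6a2 came close (232 and 226). Those of Col8a1 and Col8a2 moved apart (2.32 and 1.40). In KO the same scale gave 5.35 and 5.46 for Col8a1, which put it above Col6a6 at 3.97 and 3.68, whereas the 3 abundant type VI genes still led. Type VI genes made up 85.8% to 87.7% of the summed level of the 9 genes in WT, and 81.4% and 85.0% in KO. The share of type VIII genes was 0.515% to 0.656% in WT, and 2.00% and 1.67% in KO. The FACIT share was 11.7% to 13.7% in WT, and 16.6% and 13.3% in KO.

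Of the 9 genes, 2 were called higher in KO (Col8a1 and Col12a1), where a call needs a DESeq2 adjusted p under 0.05 and a change above 2-fold. By DESeq2 0 were called lower, and 1 (Col6a3) passed the adjusted p with a smaller decrease. At an unadjusted p under 0.05, 3 were higher (Col8a1, Col12a1 and Col16a1) and 2 were lower (Col6a2 and Col6a3). The share of all genes at this unadjusted threshold was not counted. By edgeR's quasi-likelihood test with filterByExpr only Col8a1 was called and 0 were called lower. Across all 17070 genes tested, 5.64% were called, 3.54% were called higher, and 4.69% passed the adjusted p with a lower value in KO. In 6 of the 9 genes both KO libraries lay outside the WT range, above it in Col8a1, Col12a1 and Col16a1 and below it in Col6a1, Col6a2 and Col6a3. This occurred in 34.3% of all genes tested, and an exact permutation of 2 among 6 libraries cannot give a p below 0.0667. The median log2 fold change of the 9 genes was 0.01, against 0.02 over the 15491 tested genes whose normalised counts averaged 10 or more. Without KO-1 the log2 fold change was 1.85 for Col8a1 and 1.33 for Col12a1, and without KO-2 it was 1.83 and 1.76.

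**Figure D1:**
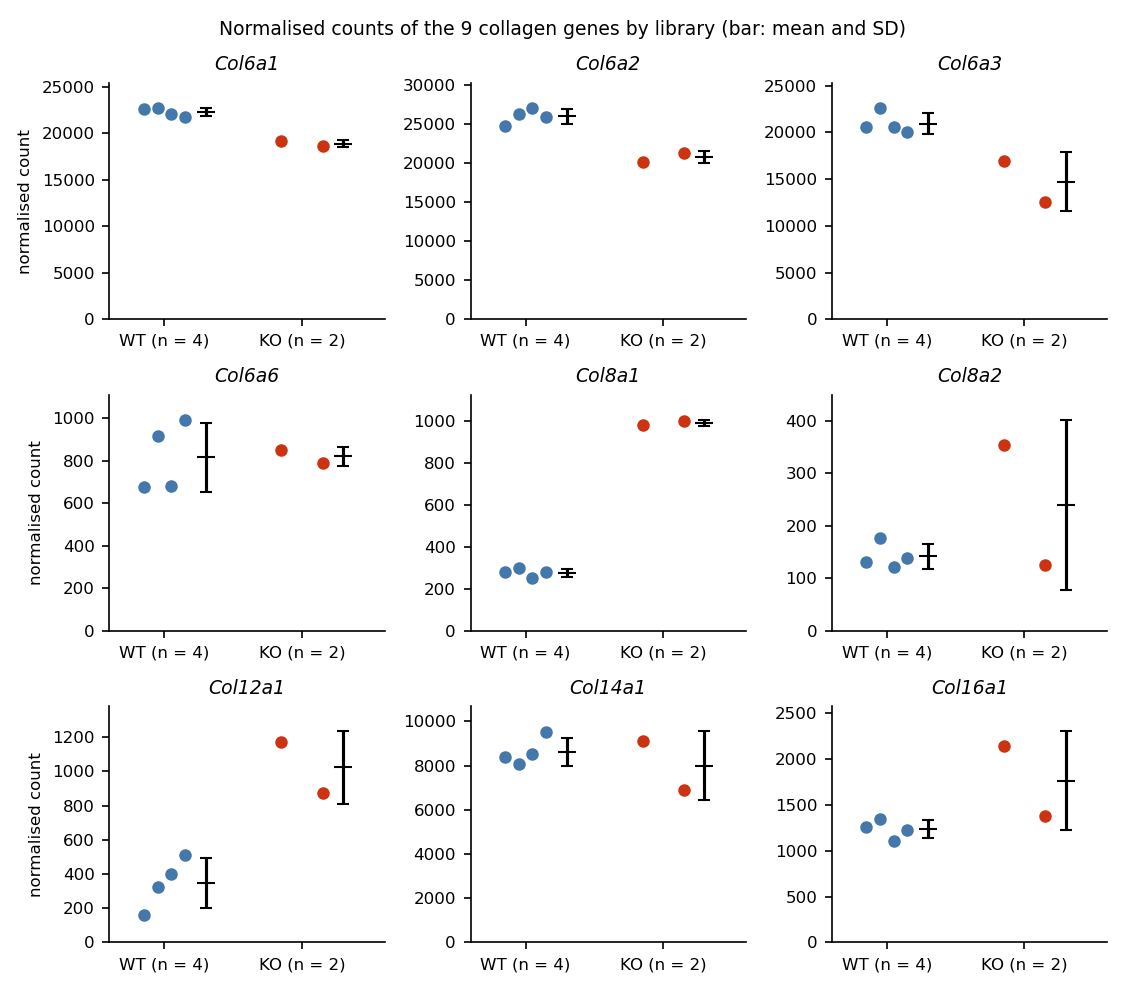
Normalised count (reads divided by DESeq2 size factors, linear axis from 0) of each of the 9 genes in the 4 WT libraries (blue) and the 2 KO libraries (red), with the mean and SD of each group as a bar. Col8a1 sits at 253 to 298 in WT and at 981 and 1002 in KO, while the KO libraries lie apart from each other for Col8a2 (354 and 125) and Col16a1 (2144 and 1383).

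All of the abundant type VI transcripts were lower in both KO libraries than in any WT library, by modest amounts, and only Col6a3 passed the adjusted p. Col6a1 (ENSMUSG00000001119.7, chr10:76708792-76726168, minus strand of GRCm38) encodes the alpha 1 chain needed for any collagen VI molecule. Its normalised counts were 22647, 22699.7, 22083 and 21782 in WT and 19202 and 18612 in KO. Col6a2 (ENSMUSG00000020241.13, chr10:76595762-76623630, minus strand), the gene of the obligatory alpha 2 chain, lies 85161 bases from Col6a1 and was at 24693, 26255, 27015 and 25922 in WT and at 20197 and 21349 in KO. For both genes the WT libraries lay within a coefficient of variation of 2.00% and 3.72%, the groups did not overlap, and KO was 1.18-fold and 1.25-fold lower.

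The log2 fold change of Col6a1 was -0.24 (SE 0.137, adjusted p = 0.304) and that of Col6a2 was -0.32 (SE 0.141, adjusted p = 0.136). Neither passed the threshold, and the 95% intervals run from -0.51 to 0.03 and from -0.60 to -0.05, both of which leave out a 2-fold decrease. The intervals come from the DESeq2 estimate and its SE and are not adjusted for the number of genes.

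Col6a3 (ENSMUSG00000048126.16, chr1:90765923-90843971, minus strand), which encodes the long alpha 3 chain, was at 20573, 22574, 20545 and 19994 in WT and at 16985 and 12510.4 in KO. It fell by 0.50 on the log2 scale (SE 0.176, interval -0.85 to -0.16, adjusted p = 0.0427), a 1.42-fold decrease that did not reach the 2-fold threshold. The lower of its KO values is that of KO-2, the library with the high mitochondrial share, at -0.74 against the WT mean on the log2 scale, compared with -0.30 in KO-1. Without KO-2 the log2 fold change was -0.29 with an adjusted p of 0.3, without KO-1 it was -0.74 with an adjusted p of 2.89e-05, and edgeR gave an adjusted p of 0.0865 with both KO libraries.

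Col6a6 (ENSMUSG00000043719.14, chr9:105687809-105828160, minus strand), whose chain can stand in for alpha 3, had KO values inside the WT range. Its counts of 676, 917, 681 and 993 in WT enclosed the KO values of 853 and 790.4. The log2 fold change was 0.01 (SE 0.227, adjusted p = 0.989) with an interval from -0.44 to 0.45, and the spread in WT was 19.9% of the mean.

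**Figure D2:**
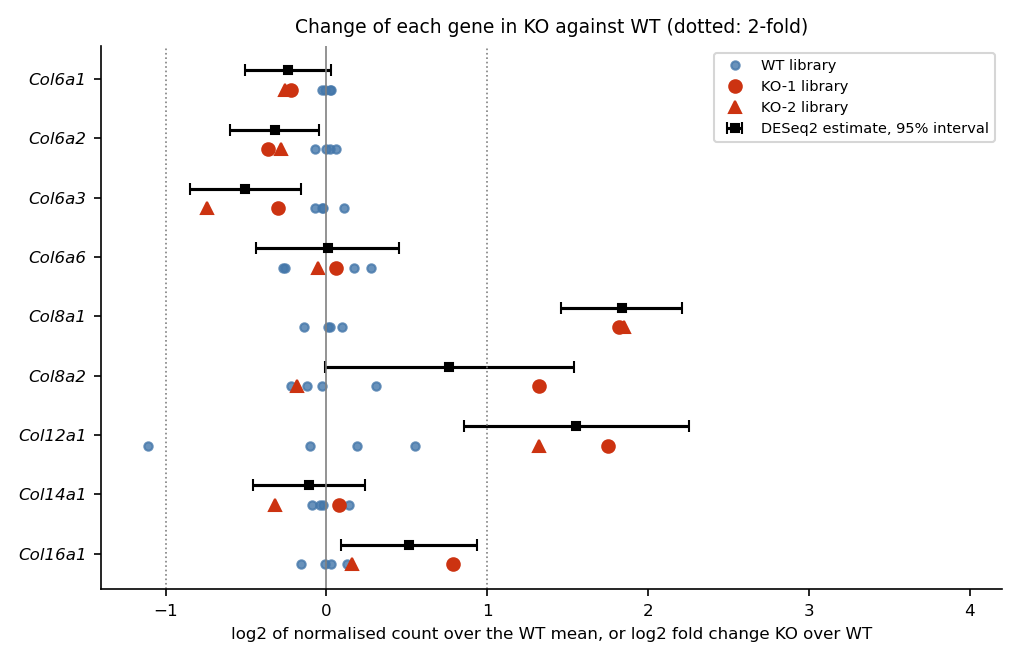
For each gene, the DESeq2 log2 fold change of KO against WT with its 95% interval (black), and below it the log2 ratio of each library to the WT mean for WT (blue) and for KO-1 (red circle) and KO-2 (red triangle). Dotted lines mark a 2-fold change, and of the 9 estimates only those of Col8a1 (1.84) and Col12a1 (1.55) lie beyond them.

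Col8a1 rose 3.57-fold in KO, by nearly the same amount in both libraries. Col8a1 (ENSMUSG00000068196.4, chr16:57624258-57754737, minus strand), which encodes the alpha 1 chain of collagen VIII, had normalised counts of 281, 298, 253 and 279 in WT and of 981 and 1002 in KO. The KO values differed from each other by less than the WT values did and lay far above them. The log2 fold change was 1.84 (SE 0.192, interval 1.46 to 2.21, adjusted p = 7.7e-19), edgeR's quasi-likelihood test gave an adjusted p of 0.00123, and the gene was called in all 13 alternative fits.

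Col8a2 (ENSMUSG00000056174.8, chr4:126286793-126314330, plus strand), the partner chain, was at 131, 176, 122 and 139 in WT and at 354 and 125 in KO. KO-1 was above every WT library while KO-2 lay inside the WT range, and the group difference of 0.76 on the log2 scale (SE 0.395, interval -0.01 to 1.54, adjusted p = 0.233) did not pass. With KO-1 as the sole KO library the log2 fold change was 1.33 with an adjusted p of 0.00222, and with KO-2 alone it was -0.18 with an adjusted p of 0.825.

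The ratio of Col8a1 to Col8a2 levels was 1.23, 0.971, 1.19 and 1.15 in WT and 1.59 and 4.58 in KO. The size of this ratio depends on the exon length used: with the longest transcript the WT mean levels were 2.32 for Col8a1 and 1.40 for Col8a2, while the difference between the groups was the same. Both KO ratios were above all WT ratios, with a log2 difference of 1.25 and an exact two-sided permutation p of 0.0667, the smallest possible here. The summed type VIII level was 2.78, 3.30, 2.54 and 2.84 in WT and 8.72 and 6.66 in KO, higher by 1.42 on the log2 scale (exact permutation p = 0.0667). The summed type VI level was 424, 441, 430.5 and 421 in WT and 356 and 339 in KO, lower by 0.31 on the log2 scale, again without overlap and again at the smallest exact p of 0.0667.

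**Figure D3:**
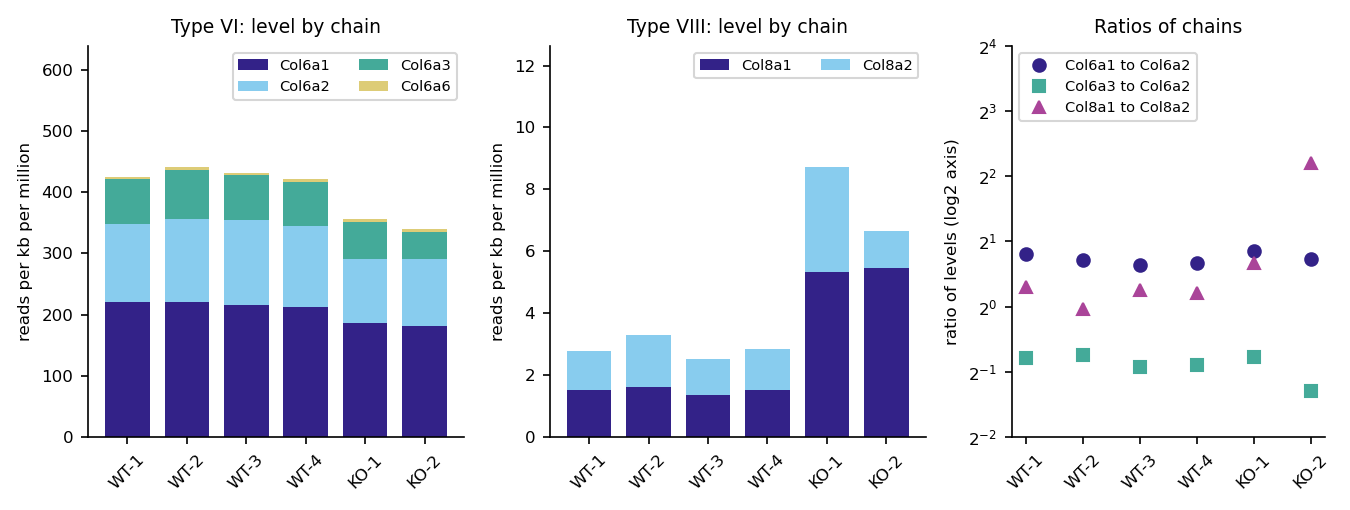
Stacked bars give the level (RPKM scale, linear axes from 0) of each type VI chain (left) and type VIII chain (middle) in each library, and the right panel gives ratios of levels between chains on a log2 axis. The type VI stack is 421 to 441 in WT and 356 and 339 in KO, the type VIII stack is 2.54 to 3.30 in WT and 8.72 and 6.66 in KO, and the ratio of Col8a1 to Col8a2 reaches 4.58 in KO-2.

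Within type VI the proportions of the chains overlapped between the groups. The ratio of Col6a1 to Col6a2 was 1.55 to 1.74 in WT and 1.81 and 1.66 in KO (log2 difference 0.08, exact permutation p = 0.267). The ratio of Col6a3 to Col6a2 was 0.529 to 0.598 in WT and 0.585 and 0.408 in KO (log2 difference -0.20, exact permutation p = 0.4), so that KO-1 was inside the WT range and KO-2 below it. The ratio of Col6a6 to Col6a2 was 0.0229 to 0.0348 in WT and 0.0384 and 0.0336 in KO (log2 difference 0.35, exact permutation p = 0.2). These ratios depend on the exon length assigned to each gene, and with the longest transcript in place of all exons the WT means of Col6a1 and Col6a2 were 232 and 226, nearly equal.

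Of the FACIT genes, only Col12a1 passed the test. Col12a1 (ENSMUSG00000032332.17, chr9:79598991-79718831, minus strand), a fibril surface collagen of tissues under tension, was at 161, 326, 397 and 509.5 in WT and at 1172 and 874 in KO. Its WT libraries were the most spread of the 9 genes, at 41.8% of their mean, but the lower KO value still exceeded the highest WT value. It rose 2.94-fold (log2 fold change 1.55, SE 0.358, interval 0.85 to 2.26, adjusted p = 0.000457). The call was not kept by edgeR's quasi-likelihood test with filterByExpr (adjusted p = 0.0516) or without KO-1 (log2 fold change 1.33, adjusted p = 0.0547), while the log2 fold change stayed between 1.32 and 2.14 in the 13 alternative fits.

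Col14a1 (ENSMUSG00000022371.15, chr15:55307750-55520803, plus strand), the abundant relative of Col12a1 and a marker of adventitial fibroblasts, was at 8373, 8091, 8521 and 9518 in WT and at 9097 and 6891 in KO. The KO libraries lay on either side of most WT values. The log2 fold change was -0.11 (SE 0.177, adjusted p = 0.79), and its interval from -0.46 to 0.24 leaves out a change of the size seen for Col12a1.

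Col16a1 (ENSMUSG00000040690.15, chr4:130047840-130099283, plus strand) was at 1259, 1349, 1108 and 1227 in WT and at 2144 and 1383 in KO. KO-1 was well above WT, KO-2 just above the highest WT library, and the log2 fold change of 0.51 (SE 0.216, interval 0.09 to 0.94) had an adjusted p of 0.114. Without KO-2 it was 0.81 with an adjusted p of 0.000855, and without KO-1 it was 0.16 with an adjusted p of 0.653. The summed FACIT level, of which Col14a1 is the largest part, was 59.4, 58.7, 60.0 and 67.2 in WT and 72.3 and 53.2 in KO and did not separate the groups (log2 difference 0.02, exact permutation p = 1).

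**Figure D4:**
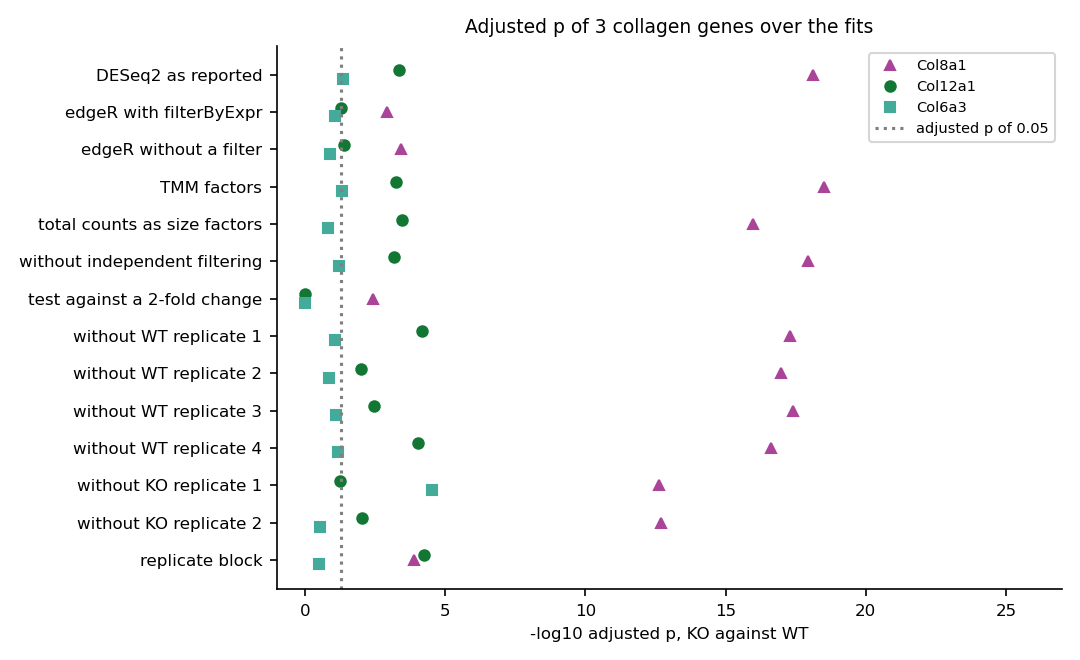
The adjusted p of Col8a1, Col12a1 and Col6a3, as -log10 on the horizontal axis, for DESeq2 as reported and for each of the 13 alternative fits in rows, with 0.05 as a dotted line. Col8a1 lies right of the line in every row, Col12a1 falls left of it in 3 rows (edgeR with filterByExpr, the test against a 2-fold change, and without KO-1), and Col6a3 falls left of it in 11.

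Other chains of the same classes and of type X, the nearest relative of type VIII, were low in this tissue and 0 passed the adjusted p in DESeq2 or in edgeR, nor an unadjusted p of 0.05. Of 10 such genes 9 were in the table and 6 had an adjusted p. Col20a1, a FACIT, was at 104 to 125 in WT and at 91.8 and 67.6 in KO (log2 fold change -0.52, adjusted p = 0.369), and Col19a1 was at 188 to 219 in WT and at 200.3 and 88.5 in KO (-0.46, adjusted p = 0.461). Col22a1 was at 11.0 to 40.4 in WT and at 38.7 and 29.5 in KO. Col9a1 and Col9a3, of the cartilage FACIT collagen IX, reached at most 23.4 in any library, Col10a1 at most 32.0, and Col6a5 at most 14.4. Col6a4 had counts in 1 WT library only, Col9a2 had none, and Col21a1 was not matched to a row.

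Among the fibril proteins to which FACITs and collagen VI attach, 1 of 15 genes passed the adjusted p with a higher value and 6 with a lower value, of which 2 were called. For comparison with this and the later lists, 974 of all 17070 genes tested passed it with a higher value and 801 with a lower value. Tnxb, the gene of tenascin X, a glycoprotein that binds collagen XII and XIV and fibrils, was at 12890.1 to 15816 in WT and at 8049.9 and 5135 in KO (log2 fold change -1.15, SE 0.208, adjusted p = 2.13e-06). Tnc, which encodes tenascin C, a matrix glycoprotein of remodelling tissue, was at 4255 to 4924 in WT and at 2311 and 1743 in KO (-1.20, SE 0.179, adjusted p = 2.95e-09). Both tenascin genes were below the WT range in both KO libraries, in which Col12a1 was above it. The genes that passed the adjusted p only were Col5a2 (-0.51), Bgn (-0.70), Postn (-0.71) and Fn1 (-0.75), which fell, and Lum (0.997), which rose. Bgn was at 159244 to 195833 in WT, at 74905 in KO-1 and at 141525 in KO-2, so most of its fall was in KO-1. By edgeR with filterByExpr, 6 of the 15 genes passed the adjusted p, and Bgn did not (edgeR adjusted p 0.133). The median over the 15 genes was -0.13.

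Of 12 collagen receptors, 2 passed the adjusted p higher and 2 lower. Cspg4, the gene of the NG2 proteoglycan, a cell surface receptor for collagen VI, was at 20869 to 24362 in WT and at 9683 and 8616 in KO, and fell by 1.298 on the log2 scale (SE 0.153, adjusted p = 1.15e-14). The log2 fold changes of the 4 type VI chains were between -0.50 and 0.01. Itga2, the collagen-binding integrin alpha 2, was low at 18.7 to 36.9 in WT and higher at 78.2 and 162 in KO (log2 fold change 1.94, SE 0.482, adjusted p = 0.00145). Ddr1 (-0.67), a collagen receptor kinase, and Antxr1 (0.48), a receptor that binds collagen VI, passed the adjusted p only. By edgeR with filterByExpr, 3 of the 12 genes passed the adjusted p, and Antxr1 did not (edgeR adjusted p 0.069). The median over the 12 genes was 0.22.

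Of 21 genes for the folding and processing of collagen, 1 passed the adjusted p higher and 6 lower, with a median log2 fold change of -0.37. P3h2, a prolyl 3-hydroxylase, fell by 1.06 on the log2 scale (SE 0.167, adjusted p = 3.1e-08), from 2179 to 2698 in WT to 1166 and 1184 in KO. P4ha3, a catalytic subunit of prolyl 4-hydroxylase, rose by 2.78 (SE 0.583, adjusted p = 8.31e-05), from 7.69 to 18.8 in WT to 56.1 and 140.1 in KO. Those that fell with the adjusted p only were Plod2 (-0.47), Colgalt1 (-0.63), P3h4 (-0.69), Fkbp10 (-0.56) and Bmp1 (-0.56). By edgeR with filterByExpr, 4 of the 21 genes passed the adjusted p. Plod2, P3h4 and Bmp1 did not (edgeR adjusted p 0.0732, 0.108 and 0.0782). P3h4 was at 1247 to 1624 in WT, at 1119 in KO-1 and at 663 in KO-2. Plod2 and Colgalt1 encode enzymes that modify lysine residues of collagen, and Bmp1 a protease that trims procollagen.

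Markers of other cells of the wall and its surroundings also differed between the groups. The summed level of 8 fibroblast markers was 610 to 697 in WT and 835 and 722 in KO, with 2 of 8 (Dpt and Lum) past the adjusted p, both higher, and Lum is also among the fibril genes above. That of 9 SMC markers was 13074 to 15525 in WT and 11661 and 13798 in KO, with 0 of 9 past it in DESeq2 or edgeR and 3 lower and 1 higher at an unadjusted p under 0.05. That of 9 endothelial markers was 105 to 173 in WT and 205 and 218 in KO, with 4 of 9 past the adjusted p, all higher. At an unadjusted p under 0.05, 6 endothelial markers were higher and 2 were lower. The summed level of 9 macrophage markers was 257 to 322 in WT and 400 and 496 in KO (8 of 9 past the adjusted p, all higher). By edgeR with filterByExpr, 1 of 8 fibroblast, 3 of 9 endothelial and 3 of 9 macrophage markers passed the adjusted p. None of these markers was at 0 in all libraries, and their part in the collagen results was not tested.

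Cardiac, adipocyte and mesothelial lists differed between the KO libraries, while the cartilage list was low in both. Cardiac muscle markers were at 10.1 to 29.2 in WT and at 437 in KO-1 and 31.9 in KO-2 (4 of 7 past the adjusted p, higher). Brown adipocyte markers were at 20.5 to 32.3 in WT and at 56.9 in KO-1 and 459 in KO-2 (4 of 6, higher), and white adipocyte markers at 13.7 to 31.8 in WT and at 26.7 and 197 in KO (2 of 6, higher). Mesothelial markers, of the cells that cover the vessel, were at 3.21 to 6.06 in WT and at 12.0 and 33.6 in KO, with all 6 called higher by DESeq2. By edgeR with filterByExpr, 3 of 7 cardiac, 3 of 6 brown adipocyte, 1 of 6 white adipocyte and 3 of 6 mesothelial markers passed the adjusted p. Cartilage markers were at 11.2 to 14.2 in WT and at 2.64 and 3.30 in KO, which is mostly Acan (log2 fold change -2.39), while Matn1 and Ucma were at 0 in all libraries. KO-1, the library with the high cardiac level, is also the one in which Col8a2 and Col16a1 were high, and KO-2, with the high adipocyte level, is the one in which Col6a3 and Col14a1 were lowest. The part of these cells in those values was not tested.

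**Figure D5:**
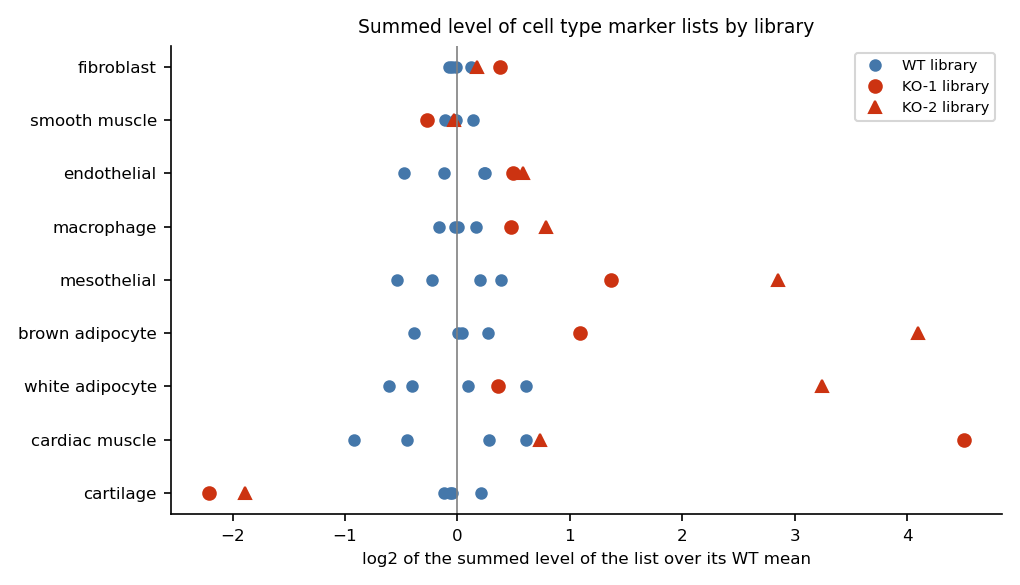
Log2 ratio of the summed level of each cell type marker list to its WT mean in the WT libraries (blue), KO-1 (red circle) and KO-2 (red triangle). The fibroblast list is above the WT range in both KO libraries (835 and 722 against 610 to 697), the smooth muscle list overlaps, the cardiac list is high in KO-1 (437 against 10.1 to 29.2 in WT) and the brown adipocyte list in KO-2 (459 against 20.5 to 32.3).

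Set against the fibroblast, SMC, endothelial and macrophage lists, Col8a1 remained above the WT range in both KO libraries, but not against the mesothelial, adipocyte and cardiac lists. Per 1000 units of the summed SMC level, Col8a1 was at 0.0887 to 0.117 in WT and at 0.459 and 0.396 in KO. Per 1000 units of the fibroblast level it was at 2.18 to 2.62 in WT and at 6.41 and 7.56 in KO, and per 1000 units of the endothelial level at 7.98 to 14.7 in WT and at 26.1 and 25.04 in KO. Per 1000 units of the macrophage level it was at 4.76 to 5.64 in WT and at 13.4 and 11.0 in KO. The groups overlapped per 1000 units of the mesothelial level (227 to 507 in WT, 447 and 163 in KO), of the brown adipocyte level (47.4 to 74.2 in WT, 94.0 and 11.9 in KO), of the white adipocyte level (51.2 to 111 in WT, 200.03 and 27.7 in KO) and of the cardiac level (52.5 to 160.4 in WT, 12.2 and 171 in KO). Against the cartilage list, itself lower in KO, Col8a1 was at 97.2 to 145 in WT and at 2025 and 1654 in KO. Col12a1 was set against the fibroblast list alone. Relative to that level it was above WT in both KO libraries, at 0.000711 to 0.00205 in WT and 0.00394 and 0.00339 in KO. Whether it stays above the WT range against the other lists was not tested.

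Relative to the fibroblast level, the summed type VI level was 0.605 to 0.711 in WT and 0.426 and 0.470 in KO, a wider separation (-0.58 on the log2 scale) than without it (-0.31). The fibroblast list was itself higher in KO (835 and 722 against 610 to 697 in WT), which lowers any ratio to it. Type VI and Col14a1 levels were not set against the other lists, such as that of SMCs. Col14a1, whose own counts overlapped between the groups, was at 0.0794 to 0.0850 of the fibroblast level in WT and at 0.0664 and 0.0581 in KO. These ratios are descriptions, since dividing by a marker list assumes that its genes have the same level per cell in WT and KO.

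Over the 6 libraries, and among 11447 genes whose normalised counts averaged 100 or more, the genes whose log2 normalised counts were most correlated with Col8a1 were Gm10093 (Pearson r = 0.997), Eno1b (0.997) and F13a1 (0.995). F13a1, the A subunit of coagulation factor XIII and a marker of resident macrophages, was at 1522 to 1655 in WT and at 3279 and 3652 in KO. Gm10093 and Eno1b resemble other genes closely, so reads could be split between copies and their counts are uncertain; Eno1b had 0 counts in all WT libraries and was at 367 and 474 in KO. The genes most correlated with Col12a1 were Fem1c (0.996), Lpgat1 (0.995) and Zfp146 (0.994), each with a log2 fold change between 0.41 and 0.43 that did not pass the adjusted p. The points share the libraries and their depth, and a group difference in any gene gives a high r in this design.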

How the data were processed

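By the study's methods, the authors trimmed reads with Trim Galore, mapped them with HISAT2 to mm10 (GRCm38) and quantified genes with StringTie on GENCODE M15. For the 6 libraries, 1 table that they deposited was used, of estimated counts that are unscaled and already whole; how they were made whole and whether strand was used are not given in the sources used here. Columns were matched to the labelled samples by their codes, and 0 were left unused. Each library is labelled as a separate sample, and p-values measure the spread between these samples. GENCODE M21, which matched 52489 of 52636 gene IDs, gave positions and lengths, and RefSeq (GRCm38.p6) the promoters.

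DESeq2 1.42.0 (R 4.3.3), the study's test, was fitted over all genes with a group term alone and independent filtering at 0.05, and genes past a Benjamini-Hochberg adjusted p of 0.05 and a 2-fold change were called. Levels are counts per kilobase of merged exons scaled by size factors. Totals and ratios were compared by exact two-sided permutation over 15 arrangements of the libraries. Wilson 95% intervals of the mitochondrial shares reach at most 0.014 points to either side and cover counting error only. Alternatives were edgeR 4.0.16 (quasi-likelihood, with and without filterByExpr), TMM factors, total counts, no independent filtering, a test against a 2-fold change, a replicate block, each library left out, and the longest transcript as gene length. The scripts were tested on simulated data.

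Named by rule were the 9 members, other chains of their classes, called genes of 3 further collagen lists and the 3 genes most correlated with each called member; any other gene was named after its values were seen. Members and lists were chosen with earlier results of these data known.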

Additional observations from a re-analysis of the deposited data

Results flagged for a closer look

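The summed FACIT level was 67.2 in the WT-4 library against 58.7 to 60.0 in the other WT libraries, a gap of 0.846 of the group's range, above the limit for 4 samples in Dixon's test. It was the only such value among 25 checked, of which 1.25 would be found by chance, and Col14a1, the largest part of this sum, was at 9518 normalised counts in WT-4 and 8091 to 8521 in the others.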

How the results depend on the processing

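Across the 13 alternative fits Col8a1 kept its call in all. Col6a1 and Col6a2 kept their direction in all and did not pass the adjusted p in any. The number of genes called, 962, was 633 with edgeR and filterByExpr, 114 in the test against a 2-fold change, 561 with the replicate block (same-numbered libraries did not deviate together, with residual correlations of -0.087 and 0.014), and between 636 (without KO-2) and 1284 (without KO-1) with 1 library left out. Of the 9 genes 2 were called, 1 with edgeR and filterByExpr (2 without the filter), 1 in the test against a 2-fold change, and between 1 and 3 with 1 library left out; the replicate block left 2. Col12a1 lost its call in 3 of the 13 fits and Col6a3 its adjusted p in 11, among them total counts (0.146), no independent filtering (0.0633) and the replicate block (0.322). The sign of Col6a6 turned with edgeR and filterByExpr (-0.0085) and ran from -0.072 to 0.12 with 1 library left out, that of Col8a2 from -0.18 to 1.33 and that of Col14a1 from -0.32 to 0.088. With 1 library left out, the log2 difference of the type VI total ran from -0.34 to -0.27 (-0.27 with total counts for depth), of the type VIII total from 1.22 to 1.61, of the FACIT total from -0.20 to 0.24, of Col6a3 to Col6a2 from -0.46 to 0.063 and of Col8a1 to Col8a2 from 0.49 to 2.02. Where 1 KO library is left, it is assumed to vary like the WT libraries. The cause of these changes was not tested.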
